A study of Homo sapiens with 6 samples.

Results

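Interferon-stimulated genes are the antiviral genes that cells switch on when they meet an interferon, and 46 of them were followed in MM.1S, a long-established line of human multiple myeloma, with and without enzastaurin, which inhibits protein kinase C beta. A gene was measured through the Affymetrix probe sets that the platform annotation pairs with its symbol alone, and the probe set with the highest mean log2 intensity stood for the gene. Of the 46 listed genes, 45 had such a probe set and 1, TDRD7, was not analysed here. Of the 45, 28 passed a filter that kept the brighter 50 percent of all probe sets by mean log2 intensity, a geometric mean of 63.3 or more, and could be tested among 6838 genes in all. The other 17 were dim. The cutoff fell between IFITM2, at a geometric mean of 59.8, and IFI44, at 69.1. The members span 74 probe sets, and 2 further probe sets that the annotation pairs with a member and another gene were left out.

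The exposure to enzastaurin lasted 3, 6 or 12 h, and each time had its own untreated control. Each treatment at each time was measured on 1 array, which makes 6, so a single time has no replicate and no error. The sources used here give neither the dose nor the solvent. They do not say whether separate cultures were used, so a p-value reflects only how these arrays vary, and part of that may be technical. The untreated cells carried no other agent in the labels, and a single cell line limits what the values describe to that line. All values are MAS5 intensities, a linear brightness scale, or log2 ratios of enzastaurin over untreated cells at the same time.

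Type I interferons bind a receptor on the cell surface that activates the kinases JAK1 and TYK2. These phosphorylate STAT proteins, which join IRF9 and bind the interferon-stimulated response element (ISRE) in the promoters of target genes. Interferon gamma works through a separate receptor and a related promoter element, the gamma-activated site (GAS). The products of the target genes degrade viral RNA, block viral entry and release, tag proteins with ISG15 and sense foreign nucleic acids. Many of them are also expressed at a basal level in myeloma and other B lineage cells.

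The arrays had median intensities from 62.2 to 67.6. All 8 listed plasma cell markers passed the filter, with intensities from 92.8 to 7091, so the labelled cell type had its defining markers. None of the 8 measured monocyte and macrophage markers passed it, and their highest intensity was 54.8. Of the listed markers of plasmacytoid dendritic cells 1 of 5 passed (TCF4), of T cells 2 of 6 (TRAT1 and CD28), of NK cells 1 of 4 (NCR1) and of stroma and epithelium 2 of 6 (COL1A1 and COL1A2). The median intensity of the monocyte markers ran from 19.1 to 28.0 on the untreated arrays and from 22.7 to 26.9 on the enzastaurin arrays. The mean log2 intensity of the ribosomal RNA control probe sets was uneven between arrays. In time order it was 3.39, 11.98 and 9.30 without and 9.99, 3.79 and 3.02 with enzastaurin. It was thus higher in treated cells at 3 h and higher in untreated cells at 6 h and 12 h.

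The promoters of the members that moved most are shown first, because the response element that defines the group can be read in them. RefSeq promoter windows were found for 35 of the 46 members, and none for OAS2, OASL, IFIT2, IFITM2, MX2, GBP2, USP18, IRF7, PML, TRIM22 and LY6E. Within the 250 bases before the start site, 21 of the 35 members (60.0%) held the ISRE core GAAANNGAAA on either strand, against 1014 of 27305 genes (3.71%). A variant with a single base between the repeats, GAAANGAAA, searched for after the windows had been seen, was held by 9 of 35 members (25.7%) and 3.34% of genes. This variant can overlap the core, as it does in OAS3. The GAS motif TTCNNNGAA was held by 9 of 35 members (25.7%) and 8.09% of genes. The sequences are the 150 bases before the start site in GRCh38.p14, read 5′ to 3′ on the strand of the gene and credited to RefSeq. Capitals mark the core or its variant, and TTTC runs are the same motif on the opposite strand.
OAS1, chr12:112906812-112906961, plus strand: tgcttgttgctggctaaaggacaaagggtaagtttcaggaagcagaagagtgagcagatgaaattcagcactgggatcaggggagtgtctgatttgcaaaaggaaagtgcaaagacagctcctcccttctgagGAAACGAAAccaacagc
OAS3, chr12:112938324-112938473, plus strand: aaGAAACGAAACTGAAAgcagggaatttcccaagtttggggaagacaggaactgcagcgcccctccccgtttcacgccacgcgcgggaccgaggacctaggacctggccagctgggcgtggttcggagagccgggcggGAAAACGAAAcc
IFIT5, chr10:89414418-89414567, plus strand: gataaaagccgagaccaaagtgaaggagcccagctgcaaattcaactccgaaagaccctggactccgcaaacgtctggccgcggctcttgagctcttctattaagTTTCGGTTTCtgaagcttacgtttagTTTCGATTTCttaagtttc
BST2, chr19:17405631-17405780, minus strand: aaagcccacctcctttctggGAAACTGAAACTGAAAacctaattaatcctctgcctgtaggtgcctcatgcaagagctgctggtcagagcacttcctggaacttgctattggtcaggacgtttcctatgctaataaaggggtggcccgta
GBP1, chr1:89065209-89065358, minus strand: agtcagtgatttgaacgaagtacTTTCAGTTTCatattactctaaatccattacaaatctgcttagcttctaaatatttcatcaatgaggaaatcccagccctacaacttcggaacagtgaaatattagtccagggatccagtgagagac
RTP4, chr3:187368235-187368384, plus strand: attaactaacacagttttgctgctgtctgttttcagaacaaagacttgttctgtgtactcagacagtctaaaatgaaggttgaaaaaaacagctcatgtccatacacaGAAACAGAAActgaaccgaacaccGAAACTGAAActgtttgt
PLSCR1, chr3:146544608-146544757, minus strand: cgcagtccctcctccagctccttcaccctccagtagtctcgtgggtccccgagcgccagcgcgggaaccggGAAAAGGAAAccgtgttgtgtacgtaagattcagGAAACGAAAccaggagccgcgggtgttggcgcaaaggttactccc

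OAS1 carried no core and 1 match to the variant, which ended 9 bases before its start site. RTP4 and IFIT5 each carried a pair of separate cores, and BST2 carried a pair of overlapping ones. SP100, the remaining member that was at least 2-fold apart at some time, had no match in its window. Of the 8 members past the filter that were 2-fold apart at 1 or more times, 6 of 8 held the core. Of the 20 that stayed under 2-fold at all times, 16 had a window and 6 of these held it. Among dim members with a window, it was held by 4 of 5 that were 2-fold apart at some time. It was also held by 5 of 5 that were not. Among all 5125 dim genes, 53.0% were 2-fold apart at some time. Whether the core went with a 2-fold ratio was not tested. Genes with the core were found among those that were higher with enzastaurin (OAS3, PLSCR1) and among those that were lower (BST2, GBP1).

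The median member lay near the median gene at each time. At 3 h the median log2 ratio of the 28 was -0.01, against -0.04 over all 6838 genes. It was -0.03 against 0.06 at 6 h and -0.21 against -0.18 at 12 h. Averaged over the 3 times, the median was -0.06 for the members and -0.05 for all genes, and 12 of 28 members lay above 0. A few members were higher, a few were lower and a majority, 20 of 28, stayed under 2-fold at every time. Most of all genes were also under 2-fold at each single time. Their share under 2-fold at every time was not counted, so the majority is not a trait of the members.

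**Figure D1:**
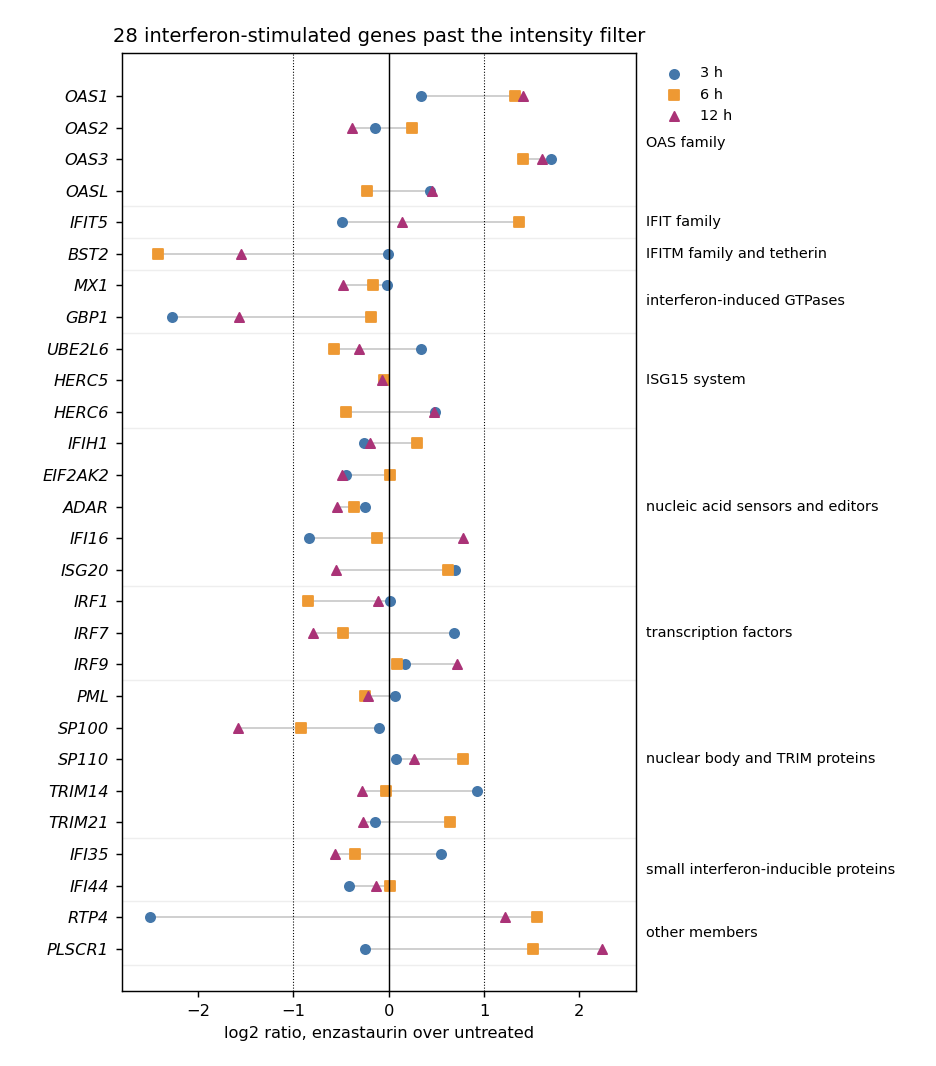
Log2 ratio of enzastaurin over untreated cells for the 28 members past the filter, grouped by role. Points are single array pairs at 3 h (circles), 6 h (squares) and 12 h (triangles), dotted lines mark a 2-fold difference and grey lines join a gene's lowest and highest ratio. RTP4 has the widest span, from -2.50 to 1.56, and 20 of the 28 genes stay between the dotted lines.

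Counted at single times, 1 member was at least 2-fold higher at 3 h (OAS3; 1.89% of all genes) and 2 were at least 2-fold lower (GBP1 and RTP4; 2.65% of all genes). At 6 h, 5 were higher, namely OAS1, OAS3, IFIT5, RTP4 and PLSCR1, where 5.6% of all genes were. BST2 alone of the 28 was at least 2-fold lower at 6 h, where 3.22% of all genes were. At 12 h, 4 members were higher (OAS1, OAS3, RTP4 and PLSCR1; 3.88% of all genes) and 3 were lower (BST2, GBP1 and SP100; 10.4% of all genes). The lower share at 12 h, 3 of 28, was close to that background.

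Across the 3 times together no member passed the test, in limma with time as a block and Benjamini-Hochberg adjustment over all 6838 genes. Over all genes 4 passed (0.0585%). At an unadjusted p under 0.05, 6 of 28 members passed (OAS1, OAS3, BST2, GBP1, SP100 and PLSCR1), against 5.41% of all genes. In this fit a difference between times counts as error. A second fit used the 6 h and 12 h pairs alone, a choice made knowing that these times were alike in earlier results of these data. There 5 of 28 members passed, against 3.61% of all genes. OAS1, OAS3, PLSCR1 and RTP4 rose, 4 of 28 against 1.54% of all genes. BST2 fell, 1 of 28 against 2.08%. The remaining fit asked whether the mean effect at 6 h and 12 h differed from that at 3 h, and 1 of 28 members passed, RTP4, against 0.336% of all genes. Its residual error is the same difference between the 6 h and 12 h ratios as in the fit before it. Each of these later fits left 1 residual degree of freedom per gene. The prior variance, drawn from all genes, had 16.86 degrees of freedom in the fit of 6 h and 12 h and 14.82 in the remaining fit. Their standard errors thus rest mostly on the spread over all genes and not on replicates of a gene.

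**Figure D2:**
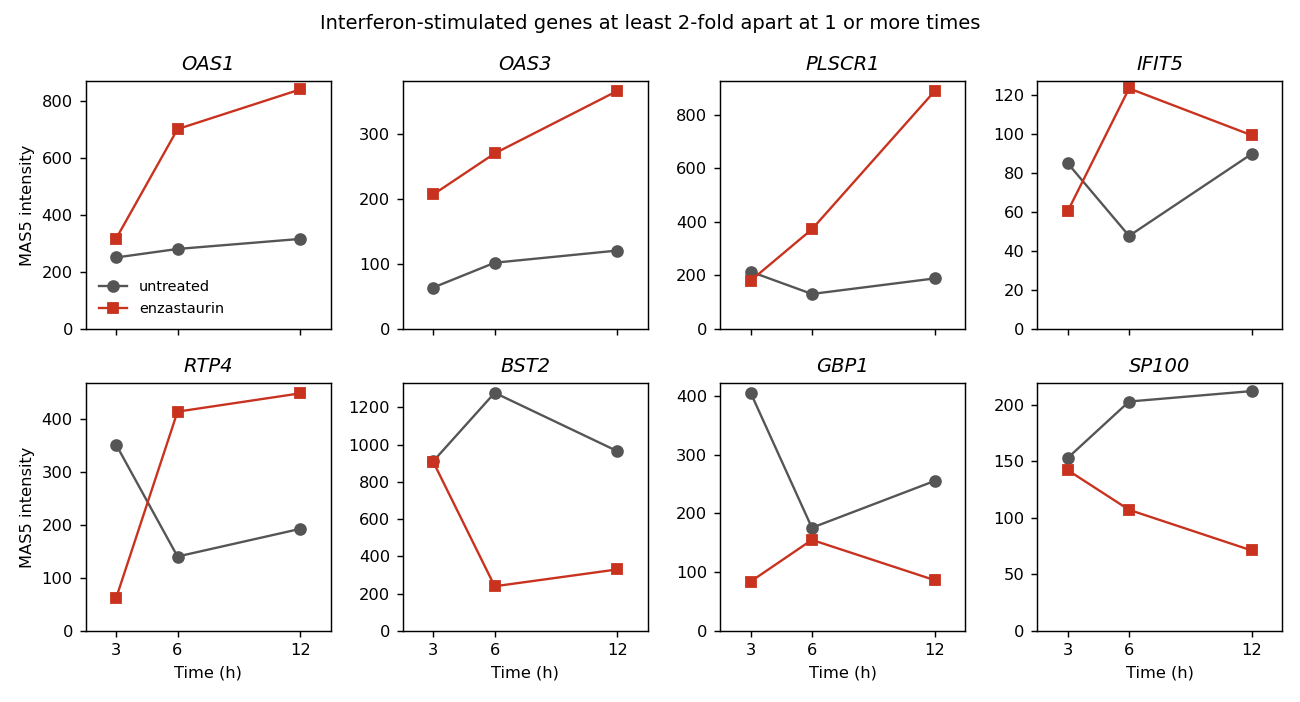
MAS5 intensity against time of treatment (h) for the 8 members past the filter that were at least 2-fold apart at 1 or more times. Each point is 1 array, grey circles are untreated and red squares are enzastaurin-treated cells, each panel has its own intensity axis from 0, and lines only join arrays of a group. BST2 starts level at 911 and 906 and separates to 1278 and 239 at 6 h, while RTP4 crosses from lower to higher.

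The 2′-5′-oligoadenylate synthetases make a short signal molecule from ATP when they meet double-stranded RNA, which activates the nuclease RNase L. OAS1, OAS3 and OAS2 lie next to each other on chromosome 12, at chr12:112906962-112933219, chr12:112938474-112973251 and chr12:112978519-113011723 (GRCh38.p14). OAS3, measured with a single probe set, had untreated intensities of 63.5 at 3 h, 102 at 6 h and 121 at 12 h, and treated ones of 207, 270 and 367. The groups did not overlap, and OAS3 was the single member that was at least 2-fold higher at all 3 times, by 3.26-, 2.66- and 3.04-fold. Its mean log2 ratio over the 3 times was 1.57 ± 0.29 (SE, n = 3 pairs; limma adjusted p = 0.132). At 6 h and 12 h it rose by 1.51 ± 0.34 (SE, n = 2 pairs; limma adjusted p = 0.0177). Its effect at the later times differed from that at 3 h by only -0.20 ± 0.60 (limma adjusted p = 0.939).

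OAS1 had untreated intensities of 250, 280 and 315 and treated intensities of 317, 701 and 840. The groups again did not overlap, although the lowest treated value, at 3 h, was within 2 intensity units of the highest untreated one. Its log2 ratio was 0.34 at 3 h, 1.32 at 6 h and 1.41 at 12 h. At 6 h and 12 h OAS1 rose 2.58-fold, a log2 difference of 1.37 ± 0.31 (SE, n = 2 pairs; limma adjusted p = 0.0186). With a prior variance that had no intensity trend, that adjusted p was 0.0513. The ratios of a second probe set were 0.33, 1.97 and 2.12, so the gene's probe sets had 1 direction at every time.

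The other members of the family behaved otherwise. OAS2, the third gene of the cluster, had intensities from 277 to 331 in untreated cells and from 250 to 330 in treated cells, and its ratios of -0.15, 0.25 and -0.38 changed sign between times. OASL, a related protein without synthetase activity, had ratios of 0.43, -0.23 and 0.46. Its second probe set past the filter had -0.90, 0.29 and 0.02, opposite at 3 h and at 6 h. No test of the difference between OAS1 or OAS3 and OAS2 was made.

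PLSCR1, phospholipid scramblase 1, is a membrane protein induced by interferon that restricts virus entry. Its intensities were 213, 130 and 188 in untreated cells and 179, 372 and 888 in treated cells. At 3 h the treated array was slightly lower, and at 12 h it was 4.72-fold higher, the largest ratio of any member past the filter at that time. At 6 h and 12 h PLSCR1 rose 3.68-fold, a log2 difference of 1.88 ± 0.34 (SE, n = 2 pairs; limma adjusted p = 0.00369). Without the time block that adjusted p was 0.0629. Its second probe set, with ratios of -0.72, 0.88 and 1.75, had the same signs at all 3 times.

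RTP4, a chaperone of receptors in the Golgi that is strongly induced by type I interferon, reversed. Its intensities were 352, 140 and 193 in untreated cells and 62.3, 415 and 449 in treated cells. The treated array was 5.65-fold lower at 3 h, then 2.95-fold higher at 6 h and 2.33-fold higher at 12 h. Untreated cells varied too, and their 3 h value was 2.50 times their 6 h value and the highest of the 3. At 6 h and 12 h RTP4 rose by 1.39 ± 0.33 on the log2 scale (SE, n = 2 pairs; limma adjusted p = 0.0251), and without the intensity trend in the prior variance the adjusted p was 0.0512. The later effect exceeded the early one by 3.89 ± 0.59 (SE; limma adjusted p = 0.00676). RTP4 has a single probe set, so no second measurement of the gene was at hand. Treated cells had more ribosomal RNA signal at 3 h and less at 6 h and 12 h, so this signal changed sign between the same times as RTP4. With that signal as a covariate in the fit of 3 times, the mean ratio of RTP4 was -0.64, and its part in the reversal cannot be told apart from that of time.

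BST2, tetherin, holds budding virus particles at the cell surface and is abundant on myeloma cells. Its intensities were 911, 1278 and 964 in untreated cells and 906, 239 and 330 in treated cells. At 3 h the arrays were level, and at 6 h and 12 h treated cells were 5.35-fold and 2.93-fold lower. BST2 fell by 1.98 ± 0.32 on the log2 scale at 6 h and 12 h (SE, n = 2 pairs; limma adjusted p = 0.00165), a 3.95-fold difference. The later effect differed from that at 3 h by -1.97 ± 0.55 (limma adjusted p = 0.142). BST2 is encoded at chr19:17402939-17405630 and has a single probe set here.

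The 6 h and 12 h calls rest on arrays that also differed in other measures. The ribosomal RNA signal at these times was 11.98 and 9.30 without and 3.79 and 3.02 with enzastaurin. With it as a covariate in the fit of 3 times, the mean log2 ratio of BST2 went from -1.325 to -0.94. That of PLSCR1 went from 1.168 to 0.785, that of OAS1 from 1.026 to 0.836 and that of OAS3 from 1.573 to 1.614. The log2 ratio of the 3′ to the 5′ probe sets of ACTB, a sign of RNA integrity and labelling, at 6 h and 12 h was 1.16 and 1.60 without and 0.57 and 0.86 with enzastaurin. The plasma cell markers SDC1, TNFRSF17 and IRF4, 3 of the 8 listed, fell in the fit of 6 h and 12 h, by 1.04, 2.05 and 1.60 on the log2 scale. The other 5 did not pass, with CD38, PRDM1 and POU2AF1 at -0.38, -0.70 and -0.27 and XBP1 and JCHAIN at 0.36 and 0.63. The summed intensity of the list ran from 20690.4 to 24607 on the untreated and from 18869.6 to 22572 on the treated arrays, and its median at 6 h and 12 h was 3126 and 3527 in untreated cells and 1985 and 1225 in treated cells. The part of these measures in the 6 h and 12 h results for OAS1, OAS3, PLSCR1, RTP4 and BST2 was not tested. In bulk RNA, fewer cells of a type and less RNA per cell cannot be told apart.

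GBP1 is a large GTPase, induced above all by interferon gamma, that coats intracellular bacteria. Its intensities were 406, 176 and 255 in untreated cells and 83.8, 155 and 86.3 in treated cells. The treated values were all below the untreated ones, with the widest gap at 3 h, 4.84-fold, and a gap of 1.13-fold at 6 h. Its mean log2 ratio was -1.34 ± 0.39 (SE, n = 3 pairs; limma adjusted p = 0.483). A second probe set gave -2.68, -0.24 and -0.36, which has the same low value at 3 h but not the one at 12 h. The untreated 3 h array held the highest value of GBP1 on any array. Without the 3 h pair its mean log2 ratio was -0.87, and without the 6 h pair it was -1.92. MX1, a dynamin-like GTPase that blocks influenza virus and a standard readout of interferon action, had ratios of -0.02, -0.17 and -0.48, with intensities from 93.9 to 128 in untreated cells and from 67.9 to 126 in treated cells.

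SP100 is a constituent of PML nuclear bodies, which restrict DNA viruses. Its intensities were 153, 203 and 212 in untreated cells and 142, 107 and 71.0 in treated cells. The groups did not overlap, and the gap was 1.08-fold at 3 h, 1.90-fold at 6 h and 2.99-fold at 12 h. The mean log2 ratio at 6 h and 12 h was -1.25 ± 0.36 (SE, n = 2 pairs; limma adjusted p = 0.0669). A second probe set past the filter had ratios of -0.04, 0.96 and -2.14, so the probe sets were opposite at 6 h and had 1 sign at 12 h.

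IFIT5 binds viral RNA ends and was the single one of the 4 IFIT genes past the filter. Its intensities were 84.9, 47.6 and 89.8 in untreated cells and 60.3, 123 and 99.3 in treated cells. The groups overlapped, and only the 6 h pair was 2-fold apart, at 2.59-fold. This ratio rests on the lowest untreated and the highest treated value of the gene.

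Across the 28 members, the ratios at both later times were correlated. OAS1, OAS3, PLSCR1, RTP4 and BST2, each at least 2-fold apart in 1 direction at both times, weigh most in this. The correlation without them was not computed. The sign still differed between 6 h and 12 h in OAS2, OASL, HERC6, IFIH1, EIF2AK2, IFI16, ISG20, TRIM21 and IFI44. Over the 28, the Pearson correlation of the 6 h and 12 h ratios was 0.725, against 0.439 over all 6838 genes. Those of 3 h with 6 h and with 12 h were -0.104 and 0.103, against -0.211 and -0.135. These are across genes, which are not independent replicates, and the ratios at each time share a pair of arrays. OAS1, OAS3, IRF9 and SP110 were higher at all 3 times, 4 of 28 against 9.14% of all genes. BST2, MX1, GBP1, HERC5, ADAR and SP100 were lower at all 3, 6 of 28 against 14.2%. Treated and untreated intensities did not overlap for OAS1, OAS3, BST2, GBP1, ADAR and SP100, 6 of 28 against 10.6% of all genes. The sign at 3 h was opposite to that at both later times in 9 of 28 members (IFIT5, UBE2L6, IRF1, IRF7, PML, TRIM14, IFI35, RTP4 and PLSCR1), close to the 37.5% of all genes.

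**Figure D3:**
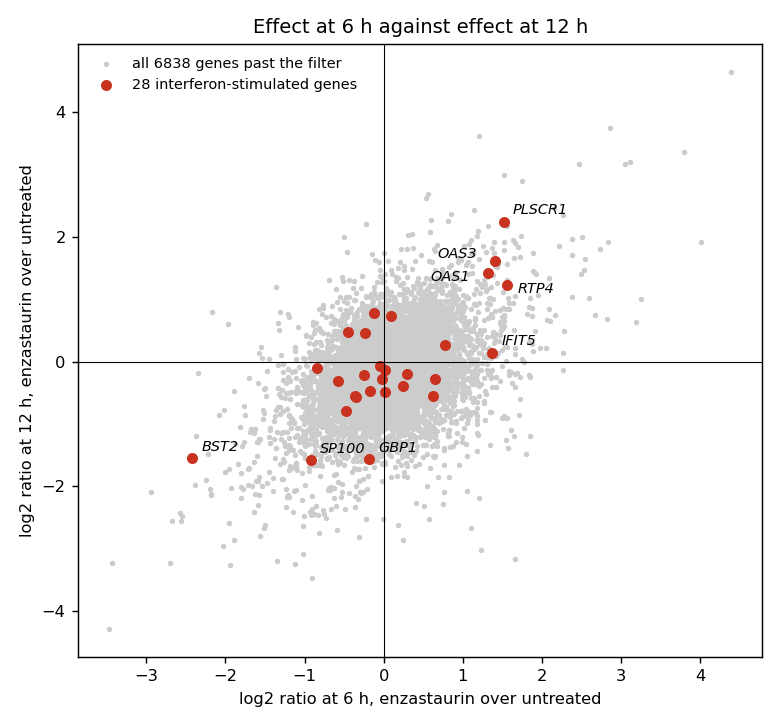
Log2 ratio of enzastaurin over untreated cells at 12 h (vertical) against that at 6 h (horizontal). Grey points are all 6838 genes past the filter and red points the 28 members, each from 1 pair of arrays per time. OAS1, OAS3, PLSCR1 and RTP4 lie at the upper right, BST2 at the lower left, and most members near the centre, with a Pearson correlation of 0.725 over the members.

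The other 20 members past the filter stayed under 2-fold at all times. Of the ISG15 conjugation system, the E2 enzyme UBE2L6 had ratios of 0.34, -0.57 and -0.31, and the ligase HERC5 was nearly flat, at -0.04, -0.05 and -0.07 with intensities from 527 to 608. HERC6, near the filter, had ratios of 0.49, -0.45 and 0.48. None of the 3 passed a test.

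Among the sensors and editors of nucleic acids, IFIH1 (MDA5), which senses long double-stranded RNA, had ratios of -0.26, 0.30 and -0.20. EIF2AK2 (PKR), the kinase that halts translation on double-stranded RNA, had -0.45, 0.01 and -0.49. ADAR, which edits adenosine to inosine in double-stranded RNA, had intensities in time order of 2227, 2515 and 2212 without and 1873, 1962 and 1518 with enzastaurin. The ADAR groups did not overlap, yet the mean log2 ratio was only -0.38 ± 0.20 (SE, n = 3 pairs; limma adjusted p = 0.980). IFI16, a DNA sensor, had ratios of -0.83, -0.13 and 0.78, and its other probe sets also were below 0 at 3 h and above 0 at 12 h. ISG20, an exonuclease of RNA, had 0.70, 0.63 and -0.55, and its second probe set 0.83, 0.53 and 0.03.

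The transcription factors of the response did not pass a test. IRF9, the DNA-binding partner of the STAT proteins, had ratios of 0.17, 0.09 and 0.72. IRF7, which amplifies type I interferon production, had 0.69, -0.48 and -0.79, and IRF1, a target of interferon gamma, had 0.02, -0.84 and -0.11. Among nuclear body and TRIM proteins, SP110 had ratios of 0.08, 0.78 and 0.27, TRIM21, an antibody receptor in the cytosol, had -0.15, 0.65 and -0.27, and TRIM14 had 0.93, -0.02 and -0.27. IFI35 had 0.55, -0.35 and -0.56, and IFI44 had -0.42, 0.02 and -0.13.

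PML, which builds the nuclear bodies, split by probe set. The one with the highest mean had ratios of 0.06, -0.24 and -0.22, while another past the filter had 0.18, 0.53 and 1.75 at 3, 6 and 12 h and yet another -0.15, 0.13 and 1.08. Of the 15 members with over 1 probe set, 9 had over 1 past the filter, and in 4 of these (OASL, IFI16, PML and SP110) the mean ratio differed in sign between them. SP110 was 0.37 in the probe set used and -0.25 in the other. In OAS1, PLSCR1 and GBP1 both probe sets had the same sign as each other at each time.

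**Figure D4:**
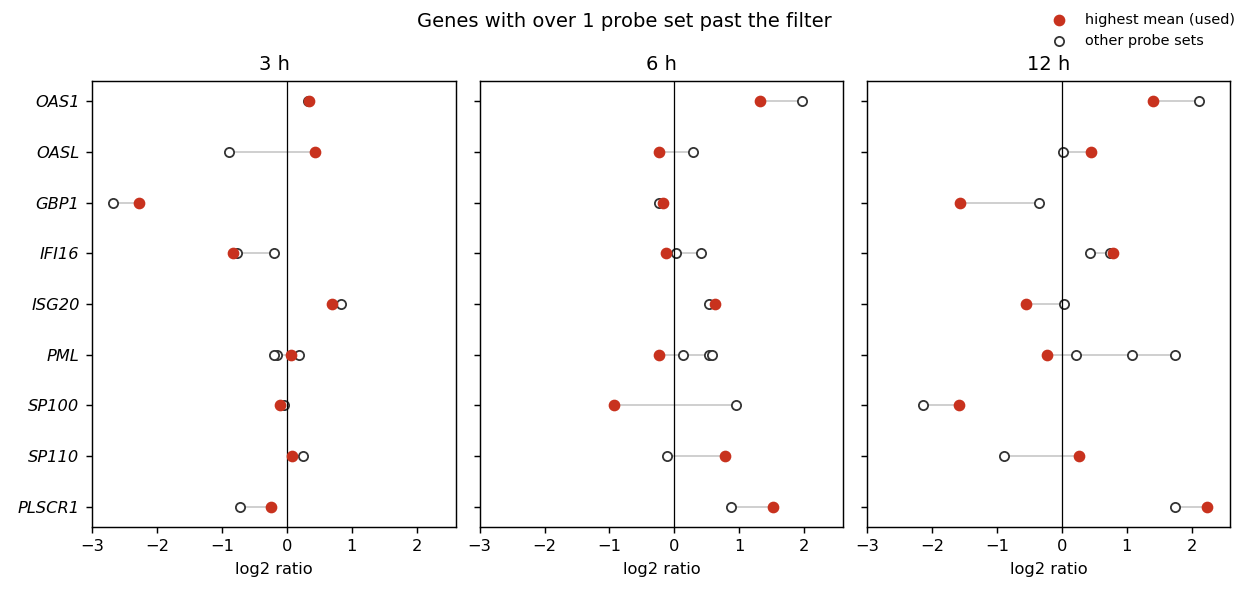
Log2 ratio of enzastaurin over untreated cells at 3, 6 and 12 h for the 9 members with over 1 probe set past the filter. Filled points are the probe set with the highest mean, used in the tests, open points the others, and grey lines join a gene's lowest and highest. OAS1 and PLSCR1 lie above 0 in both probe sets at 6 h and 12 h, whereas the PML probe sets spread from -0.22 to 1.75 at 12 h.

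The 17 dim members had intensities from 0 to 80.4 and entered only the fits made without the filter. Several classical markers of an interferon response are among them, including IFIT1, ISG15, IFI27 and IFI44L. Ratios of at least 2-fold at some time were seen in 9 of them (IFIT1, MX2, GBP2, ISG15, USP18, TRIM22, IFI6, IFI44L and XAF1). That is 9 of 17, where 2716 of all 5125 dim genes (53.0%) had such a ratio. IFI6 was the one with a like ratio at all times, -2.08, -1.79 and -1.97, from 30.2, 61.7 and 25.0 in untreated cells to 7.15, 17.8 and 6.36 in treated cells. Without the filter it was called at 6 h and 12 h, at -1.88 ± 0.59 (SE, n = 2 pairs; limma adjusted p = 0.0350), in a fit that called 564 of 11963 genes. The prior variance of that fit had infinite degrees of freedom. Its standard errors thus come from the trend over all genes alone and not from the spread of IFI6. ISG15 had ratios of 1.11, -0.24 and -2.21 at intensities from 15.0 to 70.1, and IFIT1 had 1.03, -0.54 and -1.90 at intensities from 4.36 to 22.5. USP18, the protease that removes ISG15, had -0.03, 1.12 and 1.16 at intensities from 8.95 to 28.2. The other 8 dim members, IFIT2, IFIT3, IFITM1, IFITM2, IFITM3, IFI27, LY6E and LGALS3BP, stayed under 2-fold.

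The other genes of the pathway were given by fixed lists. None of the genes of these 5 lists passed the test over 3 times. Of 20 listed interferon genes, 14 had a probe set and 2 passed the filter, IFNA17 and IFNA21, whose near-identical paralogs make their identity uncertain. IFNB1, the first type I interferon that most cells make, was dim at 14.9 to 41.9, and IFNG had intensities from 8.40 to 24.0. Of 11 receptor and JAK-STAT genes, 8 had a probe set and 6 passed the filter, and 1 of these rose at 6 h and 12 h. This was IFNGR1, a chain of the interferon gamma receptor, at 302, 158 and 215 without and 268, 368 and 508 with enzastaurin (log2 difference 1.23 ± 0.33, SE, n = 2 pairs; limma adjusted p = 0.0454). JAK1 stayed between 1315 and 1565 on all 6 arrays, and TYK2 between 450 and 583. The type I receptor chain IFNAR2 had intensities from 851 to 1403, and IFNAR1 was dim, at 26.6 to 64.0. IFNGR2 and IL10RB had mean log2 ratios of 0.22 and 0.32.

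Of 16 genes of the sensing pathway upstream of interferon, 13 had a probe set and 9 passed the filter. ZBP1, a sensor of Z-form nucleic acids that is itself induced by interferon, fell at 6 h and 12 h by 1.41 ± 0.35 on the log2 scale (SE, n = 2 pairs; limma adjusted p = 0.0301). Its intensities were 129, 306 and 252 in untreated cells and 137, 95.0 and 115 in treated cells, level at 3 h as for BST2. The adaptors MAVS and MYD88, the kinase IKBKE and the factor IRF3 had mean log2 ratios of -0.87, -0.37, 0.32 and -0.22, and none passed a test. Of 10 listed regulators of the pathway, 8 passed the filter and none passed a test. IRF2, PIAS1, PTPN2 and SOCS3 had the largest mean log2 ratios among them, at -0.41, -0.33, 0.23 and -0.19. Of 37 other interferon-induced genes, 23 had a probe set, 15 passed the filter and 1 rose at 6 h and 12 h. This was SAT1, an enzyme of polyamine breakdown, with 373 and 2648 in untreated and treated cells at 6 h and 371 and 592 at 12 h (log2 difference 1.75 ± 0.39, SE, n = 2 pairs; limma adjusted p = 0.0159). SAMD9, CXCL10 and BTN3A1 had mean log2 ratios of -1.06, -0.83 and -0.76 and did not pass.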

How the data were processed

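RNA of 6 MM.1S samples, with or without enzastaurin at 3, 6 and 12 h, was measured on Affymetrix arrays. The deposited values are linear probe set intensities (intensity units of MAS5, the tool named in the submitters' processing notes). The sources used here give no version, scaling target or detection call. The number of arrays limits the precision. All columns were matched to samples through their labels, with 0 left unmatched.

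From these, intensities were floored at 1 and log2 transformed, with the authors' scaling kept. Of 22277 probe sets, 19064 were paired with 1 gene, 1043 with several, which were not named, and 2108 were not listed, besides 62 controls. The upper 50 percent by mean log2 intensity were kept, and the highest mean per gene was used. Gene names and locations came from RefSeq (GRCh38.p14).

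Fits used limma 3.58.1 in R 4.3.3 (lmFit, eBayes with an intensity trend), with Benjamini-Hochberg adjustment over 6838 genes and a call at an adjusted p under 0.05. They were enzastaurin over untreated with time as a block over 3 times, the same on the 6 h and 12 h pairs, and the mean of the 6 h and 12 h ratios minus the 3 h ratio. Standard errors are moderated. The limma fits were tested on simulated data. Alternatives changed the filter, scaling, offset, probe set, prior, time block, ribosomal RNA covariate and the pairs used. Members and lists were chosen with earlier results of these data known. Members past the filter that were 2-fold apart at some time, or called, were named with all intensities, dim ones of that size by ratio, and from each pathway list the 4 largest mean ratios. Several core signalling genes were always named where measured, and ratios of other members were added after their values were seen.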

Additional observations from a re-analysis of the deposited data

Results flagged for a closer look

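RTP4 was the single member that passed the test of a difference between early and late effects. The mean of its 6 h and 12 h log2 ratios exceeded the 3 h ratio by 3.89 (limma, Benjamini-Hochberg adjusted p = 0.00676). The sign was negative in the 3 h pair and positive in both later pairs. Under the 7 alternatives tried for this result the difference ran from 3.54 to 3.95, with limma adjusted p from 2.22e-08 to 0.0297. The lowest came with equal medians of the kept genes, where the prior variance had 1519 degrees of freedom against 14.82 in the main fit. Every alternative used the same single 3 h pair. In simulated data the test had little power. It recovered 5.0% of genes changed by 1 on the log2 scale and 54.0% of those changed by 2. The simulated spread was that of the 3 time-matched ratios, smoothed over intensity, so it includes differences between times. These rates are thus not the power on the arrays themselves. BST2 and PLSCR1, with differences of -1.97 and 2.13, did not pass, and members that did not pass cannot be taken as unchanged between times.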

How the results depend on the processing

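For the 8 members given by array, the direction turned in 4 of 96 alternative values over 3 times, in 0 of 64 at 6 h and 12 h and in 0 of 56 for late against early effects. Over 3 times, leaving out 1 pair gave from 0 to 5 called members, and only leaving out the 3 h pair gave any. That alternative is the fit of 6 h and 12 h itself, so its 5 calls are not a further result. With ribosomal RNA signal as a covariate 2 were called, GBP1 and OAS3, among 74 of all 6838 genes. The prior variance of that fit had infinite degrees of freedom, so its errors come from the trend over all genes alone. The mean log2 ratio of RTP4 turned to -0.64 there, and the cause was not tested. Leaving out 1 pair took that of RTP4 from -0.64 to 1.39, that of IFIT5 from -0.17 to 0.76 and that of GBP1 from -1.92 to -0.87. In the fit of 6 h and 12 h, a prior variance without the trend called 3 members (BST2, OAS3 and PLSCR1) among 133 of 6838 genes, with OAS1 at an adjusted p of 0.0513 and RTP4 at 0.0512. SP100 was called under 4 of 8 alternatives there, with adjusted p from 0.0212 to 0.174. For late against early effects, no filter called 3 members (BST2, PLSCR1 and RTP4) among 205 of 11963 genes. Equal medians of the kept genes, added after seeing the data, also called these 3, among 251 of 6838 genes, where 23 were called as deposited. Without the filter, 2-fold members numbered 3 higher and 4 lower at 3 h (740 and 838 of all 11963 genes), 9 and 2 at 6 h (1302 and 759), and 6 and 6 at 12 h (971 and 1253). The fit of 6 h and 12 h then called 7 members, IFI6 and SP100 being added, among 564 genes. Equal medians of all probe sets gave 2 lower at 6 h, SP100 being added, among 304 of 6838 genes. Median ratios of all genes at 12 h were -0.18 as deposited, -0.04 after quantile normalization and 0.02 with equal medians of the kept genes. Leaving out a pair was not run for the later fits, where no residual degree of freedom would remain. No call of present or absent was at hand, so a dim signal has no limit of its own.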
